A study of Mus musculus with 39 samples.

Results

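MHC class II molecules present peptides to CD4 T cells, and 10 genes of this pathway were followed through B-cell development and in MLL-AF4 leukemia of the mouse. The genes were Ciita, Cd74, H2-Aa, H2-Ab1, H2-Eb1, H2-DMa, H2-DMb2, H2-Oa, H2-Ob and Cd83. They were taken by symbol, and every probe set annotated to one of them was used, which gave 16 of the 22626 probe sets that are not array controls. Of the 16, 13 carried a single symbol. A pair of probe sets carried H2-DMb2 together with H2-DMb1, and the only probe set of H2-Ob also carried Gm20506, so their signal cannot be given to one gene. Where a gene had several probe sets, the one with the highest mean over all arrays led the description, with single-symbol probe sets first. In GRCm38.p6 the H2 genes lie on chromosome 17 between H2-Oa, which starts at 34092379, and H2-Eb1, which ends at 34316674, while Ciita is on chromosome 16 (10480014 to 10531064), Cd83 on chromosome 13 (43785112 to 43803133) and Cd74 on chromosome 18 (60803849 to 60812652).

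Cells were sorted from bone marrow, and their RNA was hybridised to 39 Affymetrix arrays. Of these, 16 carried leukemic cells with the pre-B surface phenotype (B220+ CD43- IgM- IgD-), and the series title calls them MLL-AF4 leukemic lymphoblasts. On 5 of the 16 the mouse had become leukemic after pIpC, a synthetic double-stranded RNA that triggers an interferon response, and the other 11 labels name no such treatment. Array 116 among these 11 is described as pre-B cells of an Mll-AF4stop knock-in mouse, without the word leukemic, while its cell type label is leukemic pre-B. The normal cells came from adult marrow and comprised 6 arrays of pro-B cells (B220+ CD43+ IgM- IgD-), 8 of pre-B cells (B220+ CD43- IgM- IgD-), 6 of immature B cells (B220+ CD43- IgM+ IgD-) and 3 of mature B cells (B220+ CD43- IgM+ IgD+). The labels do not give strain, age in numbers or the promoter of a Cre, and do not state whether normal arrays came from separate animals, so p-values reflect how far these arrays scatter, which may be technical.

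Class II molecules are dimers of an alpha and a beta chain, encoded in the mouse by H2-Aa with H2-Ab1 and by H2-Ea with H2-Eb1. The invariant chain, encoded by Cd74, escorts them to the endosome, where the H2-DM dimer exchanges its remnant for antigenic peptide and the H2-O dimer restrains H2-DM. Ciita encodes the coactivator that is recruited to the promoters of these genes by factors bound at an X box and a Y box. Cd83 is an activation marker of B cells and dendritic cells that slows the turnover of class II at the surface. B cells, dendritic cells and macrophages all express class II, and developing B cells are known to gain it with maturation.

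Because Ciita acts through the X and Y boxes, the promoters of the members were searched for a core X-box motif, GCAAC, followed 20 to 40 bases later by the Y-box motif ATTGG, on both strands. Each RefSeq promoter (GRCm38.p6) ran from 250 bases before to 50 bases after the start site. The pair was found in 332 of 32851 promoters, or 1.01%, while GCAAC alone was in 35.21% and ATTGG alone in 37.41%. Of 6 member genes with a promoter in the table, 4 held the pair: H2-Aa, H2-Eb1, H2-Oa and H2-Ob. Positions -120 to -21 relative to the start site are shown for these 4, with both motifs of the pair in capitals, and for H2-DMb2, where the window held ATTGG without GCAAC. A motif on the strand not printed, such as ccaat in H2-Eb1, is left in lower case. All are on chromosome 17, H2-Aa on the minus strand at chr17:34287844-34287943 and the others on the plus strand, H2-Eb1 at chr17:34305747-34305846, H2-Oa at chr17:34092259-34092358, H2-Ob at chr17:34238785-34238884 and H2-DMb2 at chr17:34145129-34145228.
H2-Aa: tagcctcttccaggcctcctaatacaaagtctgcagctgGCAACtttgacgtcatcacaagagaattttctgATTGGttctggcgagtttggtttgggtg
H2-Eb1: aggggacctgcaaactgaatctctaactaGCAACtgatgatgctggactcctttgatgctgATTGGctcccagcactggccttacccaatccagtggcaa
H2-Oa: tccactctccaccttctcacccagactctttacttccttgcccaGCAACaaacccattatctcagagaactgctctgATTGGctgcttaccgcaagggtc
H2-Ob: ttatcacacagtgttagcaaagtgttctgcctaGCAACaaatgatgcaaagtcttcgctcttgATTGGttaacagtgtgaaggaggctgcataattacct
H2-DMb2: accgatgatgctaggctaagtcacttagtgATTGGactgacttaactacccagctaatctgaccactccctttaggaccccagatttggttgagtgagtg
The motifs lay 28 bases apart in H2-Aa and H2-Oa, 27 in H2-Eb1 and 25 in H2-Ob. Both promoters listed for H2-DMa were without the pair. A match is a description of letters and does not show binding. Ciita, Cd74, H2-Ab1 and Cd83 are named only.

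Levels are given as log2 of the intensity that the authors summarised with RMA, and array medians lay between 6.36 and 6.76. Levels of different probe sets are not compared with each other. Some arrays stood apart in markers of other cells, and their values bear on a pathway that those cells also use. Leukemic array 122 went against its label: its summed intensity over 9 B-lineage markers was 2288, against 16581 to 28189 on the other 15 leukemic arrays, with the receptor chain Cd79a at 7.0 and the lineage factor Ebf1 at 7.27. Its sum over 15 markers of conventional dendritic cells and macrophages was 12198. That sum was over 5000 on 10 arrays: leukemic arrays 117 (7187), 122 and 153 (5367), pro-B arrays 2, 4 and 6 (6689 to 8804), immature B arrays 2, 3 and 6 (7173 to 8899) and mature B array 3 (10622). On the remaining arrays it reached at most 2681 for leukemic cells. The highest remaining sum was 3578 for pro-B, 1042 for pre-B, 530 for immature B and 563 for mature B arrays. Csf1r, the receptor for macrophage colony-stimulating factor, was at 11.48, 11.41 and 11.17 on immature B arrays 2, 3 and 6 and at 5.34 to 6.59 on arrays 1, 4 and 5. The arrays over 5000 were not alike in the genes behind the sum. C1qb of the same list was at 10.99, 11.02 and 10.71 on immature B arrays 2, 3 and 6. It was at 7.16, 10.64 and 9.93 on leukemic arrays 122 and 153 and mature B array 3. On leukemic array 117 Csf1r was at 12.17, C1qb at 4.9 and Clec10a at 6.18. On pro-B arrays 2, 4 and 6 C1qb was at 4.82, 5.58 and 5.54, and Clec10a at 11.9, 11.31 and 11.26. Xcr1 and Itgam averaged below the background limit of 4.14, the lower quartile of all log2 values, in every group. Pro-B arrays carried in addition the highest sums of 8 plasmacytoid dendritic cell markers, 14052 to 30460, against 3742 to 7353 on pre-B arrays. Comparisons are therefore given with all arrays and without the 10 arrays, a choice made after these values were seen. The arrays form 2 runs of accessions, which have no gap between them and were split where array numbers start again, at pro-B array 1. The 3' minus 5' signal of the control gene Gapdh, a measure of RNA integrity, followed the order of maturation over the normal stages in both runs. In the second run its mean log2 difference was 1.09 on leukemic arrays and 1.15 (pro-B), 1.26 (pre-B), 1.41 (immature) and 1.59 (mature). In the first run it was 0.93 on leukemic arrays and 0.92, 1.04 and 1.10 from pro-B to immature B. That of Actb did not, at 0.84 on leukemic arrays and 0.77, 0.82, 0.68 and 0.86 over the stages of the second run. Actb was higher in the first run, at 1.32 on leukemic arrays and 1.25, 1.33 and 1.19 from pro-B to immature B. The part of RNA integrity in the members' differences was not tested. In such bulk samples fewer cells of a type and less RNA per cell cannot be told apart.

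**Figure D1:**
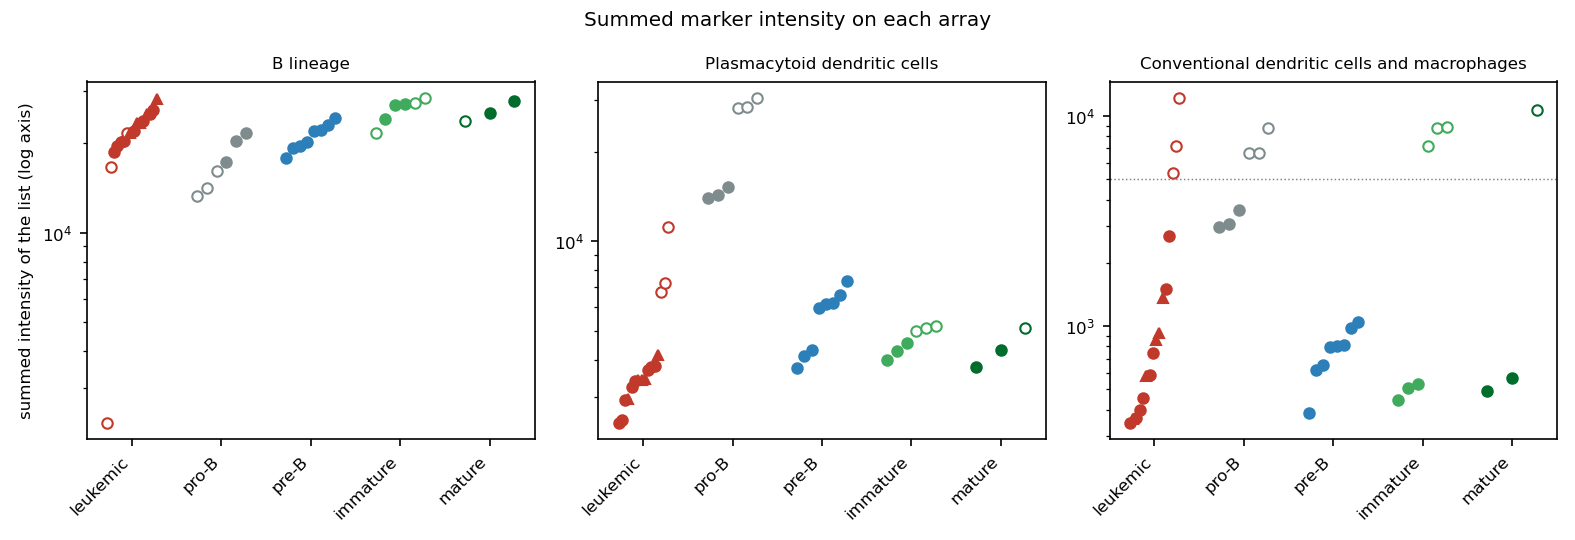
Summed intensity (vertical log axis) of B-lineage markers, plasmacytoid dendritic cell markers and conventional dendritic cell and macrophage markers, 1 point per array, placed in order of value within its group; triangles are leukemic arrays with pIpC and open symbols the 10 arrays over 5000 (dotted line) in the last panel. Leukemic array 122 lies alone at 2288 in the B-lineage panel.

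Every member was highest in mature B cells and second highest in immature B cells by group mean. The span between the lowest and highest group mean ran between 5.4-fold for H2-Ab1 and 42.1-fold for Cd83. Cd74, H2-Aa, H2-Ab1, H2-Eb1 and H2-DMa had their lowest mean in the leukemic cells, followed by pre-B and then pro-B cells. The lowest mean of H2-DMb2, H2-Oa and Cd83 was in normal pre-B cells, that of H2-Ob in pro-B cells. For Ciita the lowest mean was leukemic, followed by pro-B and pre-B cells. Neighbours in these orders that were not called apart are named with each comparison.

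**Figure D2:**
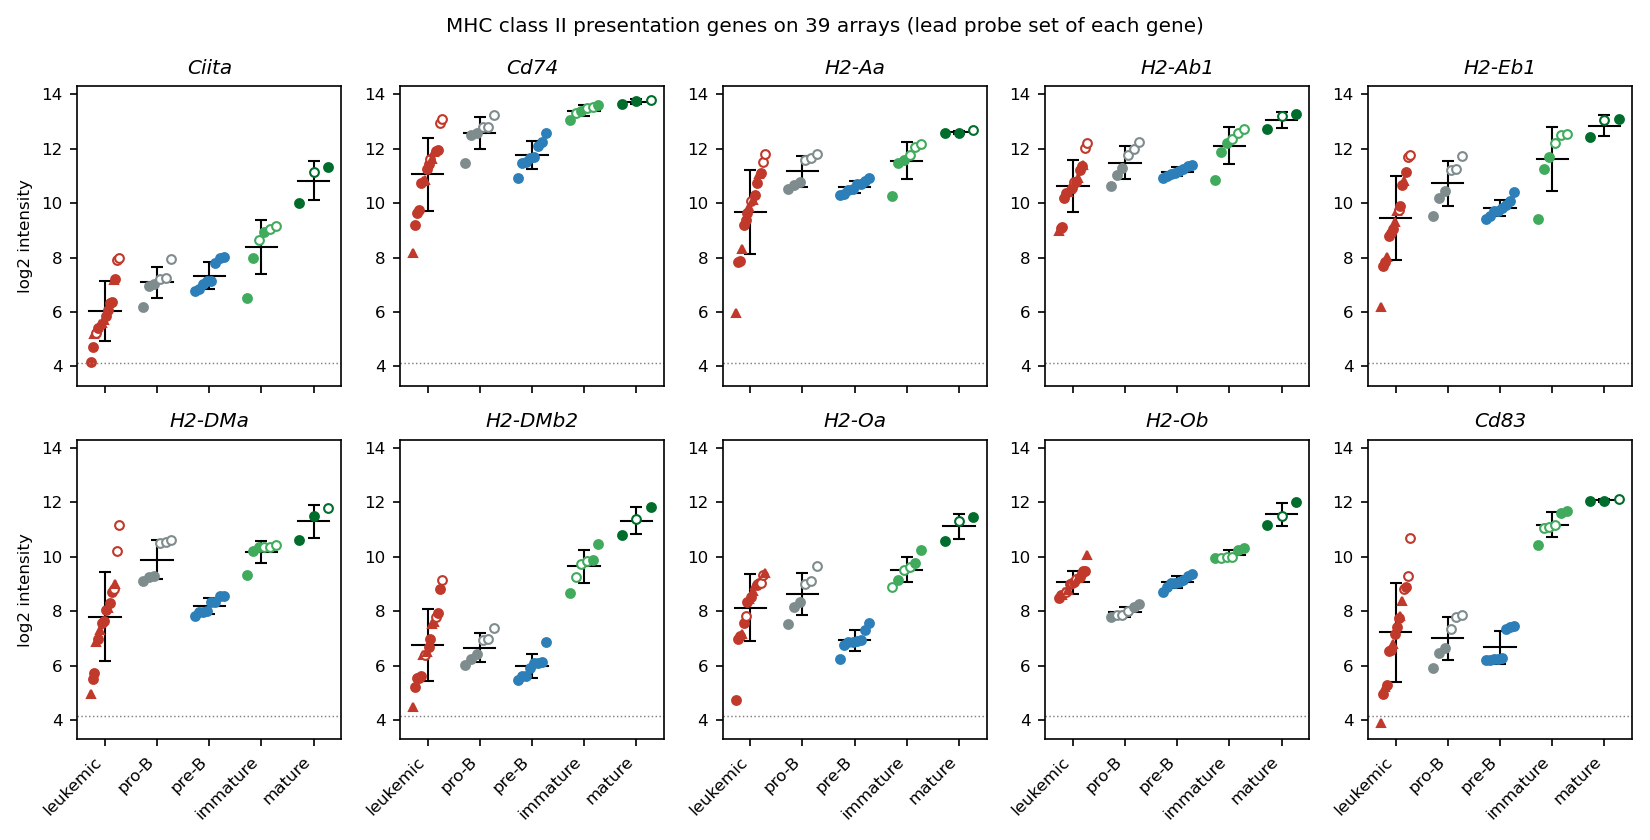
Log2 intensity (vertical axis) of the lead probe set of each of the 10 genes in leukemic cells and the 4 normal stages in order of maturation; points are arrays in order of value, triangles leukemic arrays with pIpC, open symbols the 10 arrays with a macrophage marker sum over 5000, black bars mean and SD, and the dotted line the background limit of 4.14. The leukemic points spread over several log2 units for every gene except H2-Ob, and the mature B mean is the highest of each panel.

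Most members rose at the step into the immature B stage. With all arrays, 15 of the 16 member probe sets were called higher in immature B than in pre-B cells and 0 lower (limma across 22626 probe sets, Benjamini-Hochberg adjusted p under 0.05), when 18.0% of all probe sets were called in either direction 9.72% higher and 8.32% lower. The median difference of the members was 1.503, against -0.05 over all probe sets. For 8 of the 16, every immature B array lay above every pre-B array, as did 4.38% of all probe sets, and 0 of 16 had the reverse, against 4.22%. Without the arrays over the marker limit, 8 of 16 remained called out of 11.7% of all probe sets, with a median difference of 1.04. The other 8 that were not called then were both Ciita, both H2-Aa and all 3 H2-Ab1 probe sets and that of H2-Eb1.

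Cd83 showed the largest difference. It had 10.43, 11.13 and 11.70 as lowest, median and highest value on immature B arrays, against 6.20, 6.26 and 7.46 on pre-B arrays. No array of one stage reached the other, and pre-B arrays 3, 6 and 8 stood above the remaining 5. The difference was 4.50 (SE 0.30, limma adjusted p = 2.96e-10), or 22.7-fold, and 4.58 without the arrays over the marker limit.

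H2-DMb2, the beta chain of the peptide exchanger, had 8.69, 9.78 and 10.49 on immature B arrays, against 5.49, 6.0 and 6.86 on pre-B arrays. Its stages did not overlap, and the rise was 3.67 (SE 0.26, limma adjusted p = 8.57e-10), or 12.7-fold. The 2 probe sets shared with H2-DMb1 rose by 2.92 and 2.42. H2-DMa, the alpha chain, had 9.35, 10.36 and 10.44 on immature B arrays, against 7.83, 8.18 and 8.57 on pre-B arrays. It rose by 1.98 without overlap, and by 1.76 without the arrays over the marker limit.

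Both chains of the H2-DM inhibitor rose. H2-Oa had 8.91, 9.58 and 10.26 on immature B arrays, against 6.26, 6.91 and 7.56 on pre-B arrays, a rise of 2.60 (SE 0.27, limma adjusted p = 1.9e-07). H2-Ob had 9.96, 10 and 10.32 on immature B arrays, against 8.71, 9.06 and 9.37 on pre-B arrays, a rise of 1.01 (SE 0.13, limma adjusted p = 2.2e-06). Neither chain overlapped between the stages. The size of one rise was not tested against the other.

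The invariant chain gene Cd74 had 13.05, 13.45 and 13.61 on immature B arrays, against 10.93, 11.68 and 12.59 on pre-B arrays. All immature B arrays lay above all pre-B arrays, with a rise of 1.63 (SE 0.22, limma adjusted p = 6.64e-06) and of 1.59 without the arrays over the marker limit (adjusted p = 0.000854).

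For the chains that bind peptide, the calls at this step were lost without the marker arrays. H2-Eb1 had 9.43, 11.94 and 12.54 on immature B arrays, against 9.42, 9.76 and 10.39 on pre-B arrays, a rise of 1.78 (SE 0.38, limma adjusted p = 0.00123). Immature B array 4 lay among the pre-B arrays, and arrays 2, 3 and 6, those over the marker limit, had the 3 highest values. Without them the difference of H2-Eb1 was 0.97 (adjusted p = 0.0921), with 3 immature B arrays between 9.43 and 11.70. H2-Aa had 10.27, 11.67 and 12.17 on immature B arrays, against 10.30, 10.61 and 10.93 on pre-B arrays, and H2-Ab1 had 10.86, 12.28 and 12.73, against 10.93, 11.15 and 11.39. They rose by 0.96 and 0.94 with all arrays, and differed by 0.52 and 0.49 without those over the limit (adjusted p = 0.148 and 0.184). For each of H2-Eb1, H2-Aa and H2-Ab1, 5 of 6 immature B arrays lay above every pre-B array. Array 4 was the lowest immature B array for each, and below every pre-B array for H2-Aa and H2-Ab1. It is among the 3 immature B arrays kept when those over the limit are left out.

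The call of Ciita was lost in the same way. It had 6.53, 8.80 and 9.16 on immature B arrays, against 6.76, 7.14 and 8.02 on pre-B arrays. Array 4 was below every pre-B array, array 5 among them, and the other 4 immature B arrays above. The rise was 1.04 (SE 0.35, limma adjusted p = 0.041) and 0.47 without the arrays over the limit (adjusted p = 0.64). The call was also lost without any 1 of pre-B arrays 1, 5, 6, 7 and 8 or immature B arrays 1, 2, 3 and 6, with differences of 0.89 to 1.02. The second Ciita probe set differed by 0.25 and was not called. The part of other cells in these differences was not tested.

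Mature B cells stood above immature B cells in all 16 member probe sets, of which 9 were called higher and 0 lower, when 4.78% of all probe sets were called 1.69% higher and 3.08% lower. The median difference of the members was 1.37, against 0.03 over all probe sets. Every mature B array lay above every immature B array for 13 of the 16, as for 3.90% of all probe sets. All mature B arrays belong to the second of the 2 accession runs, which were split at pro-B array 1 and which no label calls a batch. Within that run 3 of 16 were called, when 3.15% of all probe sets were called. Without mature B array 1 or 3 the counts were 3 and 4, for which no share over all probe sets is given.

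Ciita made its largest step here. Its mature B arrays were at 11.31, 10 and 11.16, against 6.53, 8.80 and 9.16 as lowest, median and highest on immature B arrays. The stages did not overlap, and the rise was 2.44 (SE 0.46, limma adjusted p = 0.00201), or 5.41-fold. It was 1.77 within the second run and 2.84 without the arrays over the marker limit (adjusted p = 0.0242).

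H2-Ob was at 12.0, 11.18 and 11.50 on mature B arrays, against 9.96, 10 and 10.32 on immature B arrays. Every mature B array was above, by 1.47 in the mean (SE 0.17, limma adjusted p = 8.3e-06) and by 1.48 within the second run. H2-DMb2 was at 11.82, 10.81 and 11.38, against 8.69, 9.78 and 10.49, a rise of 1.69 (adjusted p = 0.00384). H2-Oa was at 11.46, 10.60 and 11.33, against 8.91, 9.58 and 10.26, and rose by 1.59 (adjusted p = 0.00807). The calls of both were lost without mature B array 1 (1.44 for H2-DMb2 and 1.42 for H2-Oa) and without the arrays over the marker limit (1.62 and 1.31), and that of H2-Oa also without mature B array 3 (1.49).

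H2-Aa was at 12.58, 12.56 and 12.67 on mature B arrays, against 10.27, 11.67 and 12.17 on immature B arrays. The rise of 1.05 (SE 0.31, adjusted p = 0.0499) was lost without any 1 of 7 of the 9 arrays, all but immature B arrays 2 and 3 (0.79 to 1.09, adjusted p = 0.062 to 0.177). H2-DMa (1.12, adjusted p = 0.0506), H2-Ab1 (0.96), H2-Eb1 (1.24), Cd83 (0.89) and Cd74 (0.33) were not called. H2-DMa was called without mature B array 2 (1.46), and H2-Ab1 without immature B array 2 (1.09) and without the arrays over the limit (1.35).

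Across the whole normal series, mature B against pro-B cells called 16 of 16 probe sets higher, when 26.4% of all probe sets were called and 12.2% higher, and for 15 of the 16 every mature B array lay above every pro-B array, as for 14.7% of all probe sets. The median difference was 2.20, against 0.10 over all probe sets, and 2.65 without the arrays over the marker limit, where 16 of 16 were still called, with 19.1% of all probe sets. The largest were Cd83 at 5.06, H2-DMb2 at 4.66, Ciita at 3.73 and H2-Ob at 3.57.

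The step before, pre-B against pro-B cells, moved the other way for several members. Of the 16 probe sets 6 were called lower and 1 higher, when 30.3% of all probe sets were called, 14.1% lower and 16.3% higher. Complete separation of the arrays was seen for 1 of 16 upward, against 3.61% of all probe sets, and 1 of 16 downward, against 6.17%. The median of the members was -0.63, against 0.10 over all probe sets. Without the arrays over the marker limit 2 were called lower and 1 higher, when 13.7% of all probe sets were called, and the median was -0.15. Pro-B arrays 1, 3 and 5, which were kept, still had conventional dendritic cell and macrophage sums of 2944 to 3578. Those of pre-B arrays reached at most 1042. On pro-B arrays 2, 4 and 6 the summed plasmacytoid dendritic cell markers were 28224 to 30460 and on pro-B arrays 1, 3 and 5 they were 14052 to 15303. All 8 markers of that list were called lower in pre-B cells. Markers of T and NK cells summed to 641 to 1307 on pre-B arrays, against 4727 to 11660 on pro-B arrays, with 8 of 8 called lower. For neutrophils and monocytes the median sum was 19840 on pre-B and 32791 on pro-B arrays, with 8 of 9 called lower. The part of these cells in the members' differences was not tested.

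H2-DMa divided the pro-B arrays in the same way. It had 7.83, 8.18 and 8.57 on pre-B arrays, against 10.63, 10.51 and 10.54 on pro-B arrays 2, 4 and 6 and 9.31, 9.28 and 9.13 on pro-B arrays 1, 3 and 5. Every pre-B array was below every pro-B array, a fall of 1.69 (SE 0.25, limma adjusted p = 1.88e-05), and the difference was -1.03 (adjusted p = 0.00551) without the arrays over the limit. H2-Oa had 6.26, 6.91 and 7.56 on pre-B arrays, against 7.53, 8.69 and 9.65 on pro-B arrays. It fell by 1.70 (SE 0.27, adjusted p = 4.61e-05), with 7 of 8 pre-B arrays below every pro-B array, and differed by -1.07 (adjusted p = 0.0169) without the arrays over the limit.

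H2-Ob was the only member called higher at this step in this fit. It had 8.71, 9.06 and 9.37 on pre-B arrays, against 7.78, 7.94 and 8.26 on pro-B arrays, without overlap and with a difference of 1.08 (SE 0.13, limma adjusted p = 6.51e-07). The rise was 1.01 without the arrays over the limit. H2-Ob therefore rose at each of the 3 normal steps, while its partner H2-Oa fell at the first of them. Cd74 fell by 0.79 with all arrays and differed by -0.42 (adjusted p = 0.308) without those over the limit. H2-DMb2 fell by 0.69 at adjusted p = 0.0499, and the call was lost without any 1 of pro-B arrays 2, 3, 4 and 6 or pre-B arrays 1, 2, 5, 6, 7 and 8 (differences of -0.74 to -0.55). Its 2 probe sets shared with H2-DMb1 fell by 1.23 and 1.53.

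H2-Aa (-0.57), H2-Eb1 (-0.90), H2-Ab1 (-0.33), Cd83 (-0.33) and Ciita (0.25) were not called between pre-B and pro-B cells. H2-Aa was called without pro-B array 3 or 5, and H2-Eb1 without pro-B array 5.

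Leukemic cells were then set against normal pre-B cells, which were sorted with the same surface markers. Of the 16 member probe sets 2 were called lower and 0 higher, when 15.6% of all probe sets were called, 7.32% lower and 8.23% higher. Both were Ciita. The median difference of the members was -0.39, against -0.00 over all probe sets, and -0.76 without the arrays over the marker limit, where 3 of 16 were called lower, the third being a second H2-Aa probe set, and 17.1% of all probe sets were called. For 0 of the 16 did all leukemic arrays lie above or all below every pre-B array, as they did for 0.601% and 0.791% of all probe sets.

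**Figure D3:**
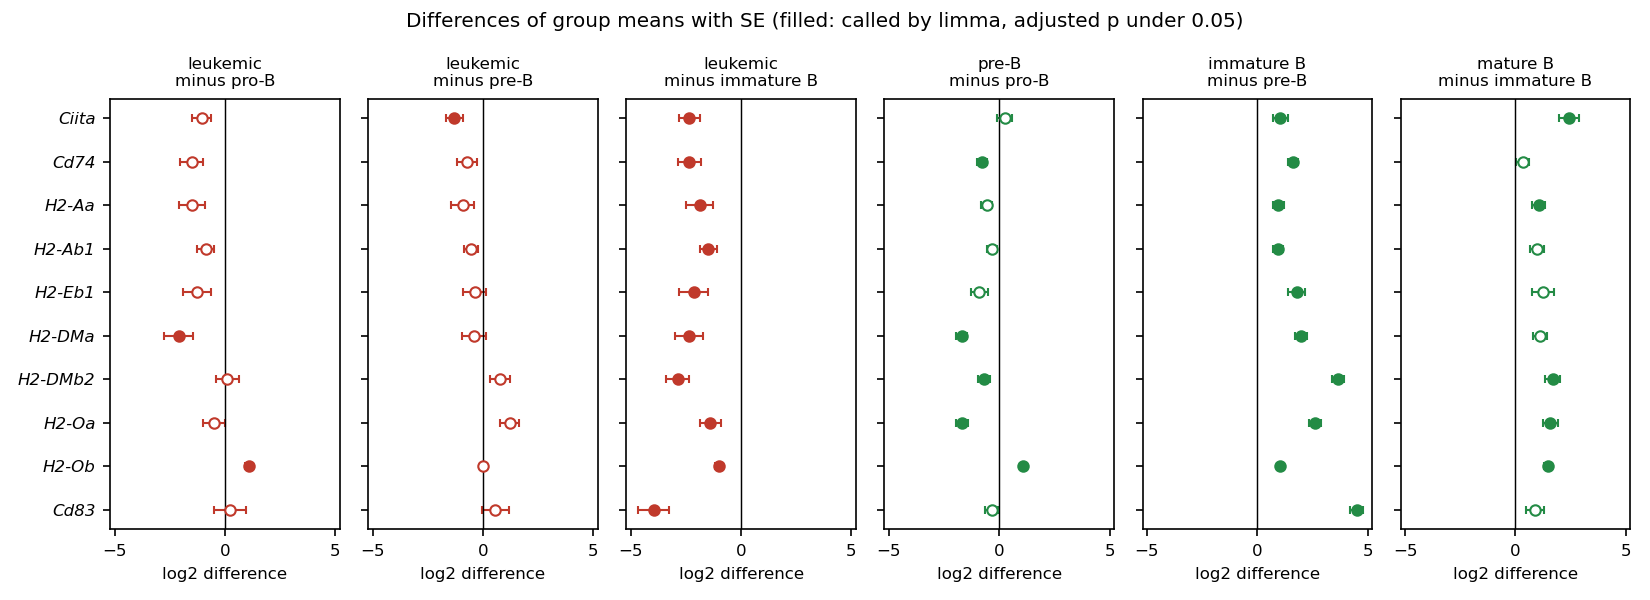
Difference of group means on the log2 scale (horizontal axis, bars SE) for the lead probe set of each gene in 6 comparisons named above the panels; filled points were called by limma at an adjusted p under 0.05. All 10 points of leukemic minus immature B are filled and below 0, and all 10 of immature B minus pre-B are filled and above 0, with all arrays included.

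Ciita had 4.17, 5.79 and 8.0 as lowest, median and highest value on the 16 leukemic arrays, against 6.76, 7.14 and 8.02 on the 8 pre-B arrays. On 12 of 16 leukemic arrays Ciita lay below every pre-B array, and arrays 117, 122, 227 and A992 lay among them. The fall was 1.31 (SE 0.39, limma adjusted p = 0.0208), a level in pre-B cells 2.48 times that in leukemic cells. Without the arrays over the marker limit the difference was -1.54 (adjusted p = 0.00148). It was -0.74 within the first accession run, where the call was lost, and -2.22 within the second. The call was also lost without pre-B array 3 (-1.21, adjusted p = 0.0505). The other Ciita probe set fell by 0.77 (SE 0.20, adjusted p = 0.00875), also with 12 of 16 arrays below every pre-B array.

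H2-Oa leaned the other way, on the edge of the call. It had 4.73, 8.50 and 9.42 on leukemic arrays, against 6.26, 6.91 and 7.56 on pre-B arrays. On 12 of 16 leukemic arrays it was above every pre-B array and only array 116 was below. The difference was 1.20 (SE 0.42, adjusted p = 0.0508). It was called without any 1 of leukemic arrays 116 (1.43), 154, 224, 226 and 270, with quantile normalization (1.19, adjusted p = 0.0395), with the dimmest probe sets left out (adjusted p = 0.0341), with all 39 arrays in the fit (adjusted p = 0.0183), with the accession run as a covariate (1.28, adjusted p = 0.037) and within the second run (1.37, adjusted p = 0.0452). It was 1.07 (adjusted p = 0.0996) without the arrays over the marker limit.

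For the other members leukemic arrays fell on both sides of the pre-B range, and their lead probe sets were not called. Cd74 had 8.17, 11.35 and 13.09 on leukemic arrays, against 10.93, 11.68 and 12.59 on pre-B arrays, a difference of -0.72 (SE 0.46) with 7 arrays below and 2 above every pre-B array. H2-Aa had 5.95, 9.96 and 11.79, against 10.30, 10.61 and 10.93, a difference of -0.93 (SE 0.52) with 11 arrays below and 4 above. H2-DMa had 4.97, 7.85 and 11.17, against 7.83, 8.18 and 8.57, a difference of -0.40 (SE 0.55) with 8 below and 5 above.

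Differences for H2-Ab1 (-0.54), H2-Eb1 (-0.37), H2-DMb2 (0.79), Cd83 (0.55) and H2-Ob (0.00) were not called. H2-Ob had 8.50, 9.08 and 10.07 on leukemic arrays, against 8.71, 9.06 and 9.37 on pre-B arrays, so that the leukemic range enclosed the normal one. The 2 accession runs gave unlike values: the members' median difference was -0.10 within the first, with 0 of 16 called, and -1.16 within the second, with 7 of 16 called. Of all 22626 probe sets, 1786 were called within the first and 3245 within the second. The second run holds 4 leukemic arrays, among them the class II-low array 270.

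Against immature B cells, all 16 probe sets were called lower in leukemic cells and 0 higher, when 24.3% of all probe sets were called 11.8% lower and 12.6% higher. No member had all leukemic arrays below all immature B arrays (0 of 16, against 2.78% of all probe sets) or above them (0 of 16, against 2.85%). The median difference was -2.25, against 0.07 over all probe sets. Cd83 fell by 3.95 and H2-DMb2 by 2.88, and the smallest fall was that of H2-Ob, 1.01. On leukemic arrays Cd83 had 3.92, 7.29 and 10.71, against 10.43, 11.13 and 11.70 on immature B arrays, with 15 of 16 below every immature B array and array 117 among them. Without the arrays over the marker limit, 8 of 16 were called, with a median of -1.90: the calls of H2-Aa, H2-Ab1, H2-Eb1 and H2-Oa were lost and those of Cd74, H2-DMa, H2-DMb2, H2-Ob, Cd83 and Ciita were kept at the lead probe set, when 15.7% of all probe sets were called. The differences whose calls were lost were -1.78 for H2-Aa (adjusted p = 0.166), -1.27 for H2-Ab1 (0.0824), -1.72 for H2-Eb1 (0.175) and -1.72 for H2-Oa (0.111), against -1.88, -1.48, -2.15 and -1.40 with all arrays. Within the first accession run 3 of 16 were called, when 12.4% of all probe sets were called. Leaving out 1 array ended the call of H2-Aa (immature B arrays 1, 2, 3 or 6), of H2-Eb1 (immature B array 3) and of H2-Oa (immature B arrays 1, 2, 3 or 5 and leukemic arrays 154 or 224).

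Against pro-B cells, 2 of 16 were called lower and 1 higher, when 14.5% of all probe sets were called, 7.14% lower and 7.33% higher. The median difference of the members was -1.04, against 0.12 over all probe sets, and 13 of 16 were negative. Without the arrays over the marker limit the median was -0.78. H2-Ob rose by 1.08 (SE 0.18, limma adjusted p = 0.000288), with every leukemic array above every pro-B array, as for 0.376% of all probe sets. It had 8.50, 9.08 and 10.07 on leukemic arrays, against 7.78, 7.94 and 8.26 on pro-B arrays. The rise was 1.03 (adjusted p = 0.0449) without the arrays over the marker limit. It was 1.19 within the second accession run, where the call was lost (adjusted p = 0.0573). H2-DMa fell by 2.09 (SE 0.65, adjusted p = 0.0352), and its call was lost without any 1 of pro-B arrays 2, 3, 4 and 6 (-2.21 to -1.94) and without the arrays over the limit (-1.95). The second H2-Aa probe set fell by 2.06. Lead probe sets not called were those of Cd74 (-1.51, adjusted p = 0.0537), H2-Aa (-1.50), H2-Eb1 (-1.275), Ciita (-1.06) and H2-Ab1 (-0.87). H2-Oa (-0.50), H2-DMb2 (0.10) and Cd83 (0.22) were not called either. Without leukemic array 122, Cd74 (-1.64) and Ciita (-1.19) were called. Cd74 was also called without pro-B array 5 or leukemic array 117 or 226. With all 39 arrays in 1 fit and with the accession run as a covariate, Cd74 (limma adjusted p = 0.0118 and 0.0436) and H2-Aa (0.0296 and 0.0277) were called. Ciita was called within the second run (-1.79, adjusted p = 0.0147). All 8 plasmacytoid dendritic cell markers were also called lower in leukemic than in pro-B cells, and their part was not tested.

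The 5 leukemic arrays with pIpC were set against the 11 without. With limma 0 of 16 member probe sets were called, and 0 had an unadjusted p under 0.05, when 0.00442% of all probe sets, 1 in number, were called and 5.33% had such a p. The groups overlapped for all 16, when 0.0575% of all probe sets lay wholly above and 0.0177% wholly below. The median difference of the members was -0.45, and -0.06 without the arrays over the marker limit, all 3 of which are in the group without pIpC. The accession runs differed in sign for Cd74, H2-Aa, H2-Ab1, H2-Eb1, H2-DMb2, H2-Oa and H2-Ob. Within the first, with 3 arrays with pIpC and 9 without, the differences were 0.24 for Cd74, 0.26 for H2-Aa and 1.11 for H2-Oa, and within the second, with 2 and 2, they were -1.84, -2.16 and -0.68, with 0 of 16 called in each. Over all probe sets 0.0133% were called within the first run and 0% within the second. The range of Ciita was 5.18 to 7.18 on arrays with pIpC, inside the 4.17 to 8.0 of those without.

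Variation among leukemic arrays was wide for this pathway. The median SD of the 16 member probe sets was 1.31 on leukemic arrays, against 0.33 on pre-B arrays. Over all probe sets the corresponding medians were 0.42 and 0.31, and over the 7926 probe sets with a mean above 8 they were 0.38 and 0.25. The leukemic SD includes the 3 arrays over the macrophage marker limit, which no pre-B array exceeded, and was not computed without them. Cd83 had the largest leukemic SD, 1.80, above that of 98.8% of all probe sets. Its values were 3.92 to 10.71 on all leukemic arrays and 3.92 to 8.91 on the 13 not over the limit. H2-Ob had the smallest among lead probe sets, 0.42, above that of 49.6%.

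**Figure D4:**
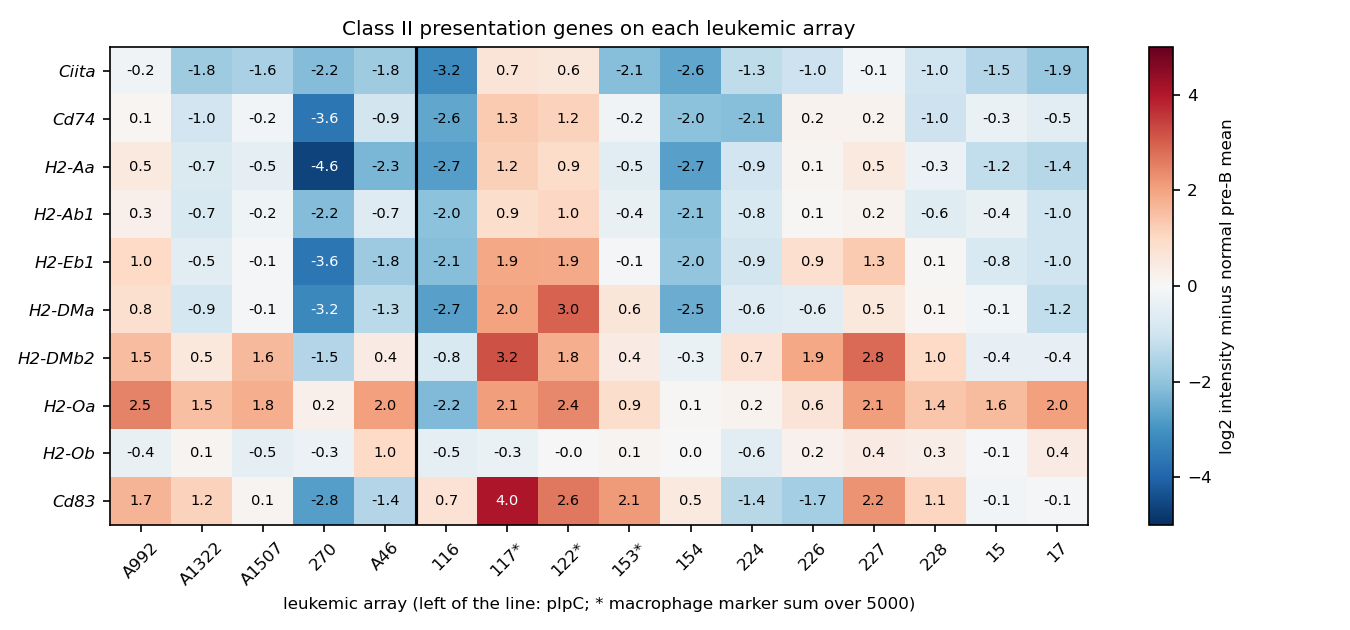
Log2 intensity minus the normal pre-B mean (colour and number) for each gene and leukemic array; arrays left of the line are those with pIpC, and the asterisk marks arrays with a macrophage marker sum over 5000. Array 270 is low for 8 of 10 genes, and arrays 117, 122 and 227 are high for most.

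The same arrays were high or low for most members. Array 270 was below every pre-B array for 8 of the 10 genes and array 116 for 9. Arrays 117 and 122 were above every pre-B array for 8 genes and arrays 227 and A992 for 7. Of these 4 high arrays, 117 and 122 were over the macrophage marker limit, with 7187 and 12198, and 227 and A992 were not, with 363 and 1365. Summed interferon response genes were also high on 3 of the 4, at 10148 on array 122, 4866 on 117 and 4455 on A992, against 495 on array 227 and at most 1859 on the remaining leukemic arrays, and their part in the members' levels was not tested. Array 153 was also over the limit, with 5367, and lay above every pre-B array for 3 genes and below for 3.

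Across the 16 leukemic arrays the 7 genes Ciita, Cd74, H2-Aa, H2-Ab1, H2-Eb1, H2-DMa and H2-DMb2 ran together. Pearson's r of their 21 pairs was 0.768 to 0.985, with a median of 0.897, and 0.752 to 0.983 over the 12 arrays of the first accession run. H2-Aa with H2-Eb1, chains of different dimers, had the highest r, 0.985. The correlations of H2-Oa with the other members were 0.352 to 0.737, those of Cd83 -0.085 to 0.720 and those of H2-Ob -0.085 to 0.378. Within the first run H2-Oa ran with the 7 genes, with r between 0.762 for H2-DMb2 and 0.852 for H2-Aa, while its r was 0.479 with Cd83 and 0.274 with H2-Ob. These are descriptions over arrays that share RNA amplification and normalization.

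For Ciita, the coactivator, 4 relations were tested over the 16 arrays by permutation. Pearson's r was 0.768 with Cd74, 0.815 with H2-Aa, 0.897 with H2-Ab1 and 0.860 with H2-Eb1 (2-sided permutation p adjusted over the 4 of 0.00049, 9e-05, 4e-05 and 6e-05). Spearman's rho was 0.747, 0.900, 0.853 and 0.885 in the same order (adjusted p = 0.00118, 2e-05, 0.000147 and 2e-05). Without arrays 117 and 122, the farthest from the median of Ciita, r was 0.627, 0.753, 0.831 and 0.783. Within the first accession run it was 0.827, 0.930, 0.921 and 0.939, and the second run, with 4 leukemic arrays, is too small. Without the 3 arrays over the marker limit r was 0.690, 0.797, 0.876 and 0.826 over 13 arrays. The Ciita level spanned 3.83 log2 units over these arrays.

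**Figure D5:**
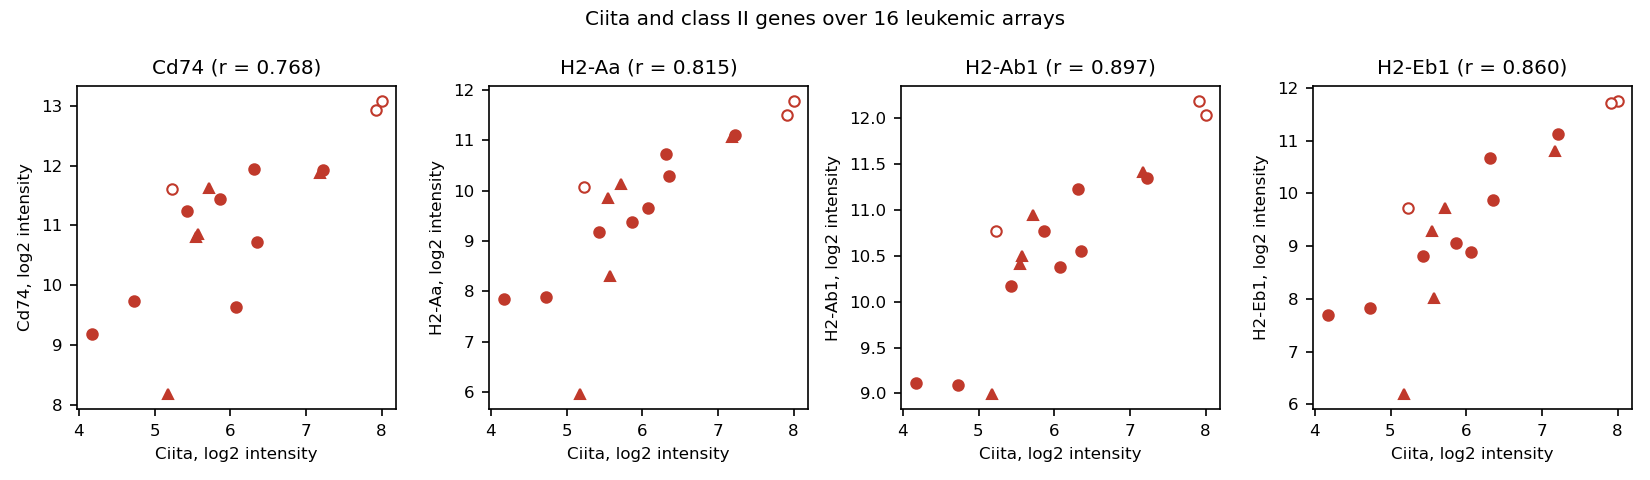
Log2 intensity of Cd74, H2-Aa, H2-Ab1 and H2-Eb1 (vertical axes) against that of Ciita (horizontal axes) on the 16 leukemic arrays; triangles are arrays with pIpC, open circles the arrays over the macrophage marker limit, and r is Pearson's. Points rise to the right in each panel, and array 270, the lowest point, lies below the others in all 4.

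Other genes of class II processing moved with the stages in part. Of 16 measured genes for chaperoning, processing and turnover, 7 were called higher and 1 lower in immature B than in pre-B cells. The counts were 6 and 1 without the arrays over the marker limit. Among all probe sets 9.72% were called higher and 8.32% lower, and 11.7% either way without those arrays. The thiol reductase Ifi30 was at 13.30 on immature B and 11.58 on pre-B arrays (difference 1.72, SE 0.16), and Ctss, the cathepsin that trims the invariant chain, rose by 1.53. Ctsh, an aminopeptidase, rose by 2.31 and the proton channel Hvcn1 by 1.75, each with all immature B arrays above all pre-B arrays, as for 4.38% of all probe sets. Unc93b1 (0.69) and Lgmn (0.53) were not called.

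In leukemic against pre-B cells, 3 of these 16 were called lower and 0 higher. Among all probe sets 15.6% were called, 7.32% lower and 8.23% higher, and 17.1% without the arrays over the marker limit. Ctsl, the cathepsin of thymic epithelium, fell by 2.40 (SE 0.57, adjusted p = 0.00391), Hvcn1 by 1.57 and Unc93b1, which carries nucleic acid-sensing Toll-like receptors, by 1.28. Ctsh (-1.17) and Ifi30 (-0.94) were not called with all arrays, and fell by 1.93 and 1.25 without the arrays over the marker limit, where 6 of 16 were called lower.

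Of 11 measured factors that act at the class II promoters, 4 were called lower and 1 higher in leukemic than in pre-B cells. The counts were the same without the arrays over the marker limit. Among all probe sets 15.6% were called, and 17.1% without those arrays. The RFX subunit Rfxank fell by 0.62, the coactivator Crebbp by 0.44 and Nfyb, of the Y-box factor NF-Y, by 0.27, while the methyltransferase Carm1 rose by 0.49. Rfxap (-0.38) and Kat2b (-0.28) were not called. At the immature B step Rfx5, the large RFX subunit, rose by 0.80 (SE 0.14, adjusted p = 0.000104), Rfxap fell by 0.40 and Nfyb by 0.24, the 3 called of 11, and Creb1 (-0.38) and Nfya (-0.27) were not called. Once the arrays over the limit were left out the counts were 1 higher and 0 lower, with Rfxap at -0.40 (adjusted p = 0.221) and Nfyb at -0.20 (adjusted p = 0.284). At this step 18.0% of all probe sets were called, and 11.7% without those arrays.

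Of 12 measured genes listed as regulators of Ciita in B cells, whatever the direction of their effect, 5 were called lower and 0 higher in leukemic than in pre-B cells. Their part in the Ciita level was not tested. The counts were 6 and 0 without the arrays over the marker limit. Among all probe sets 15.6% were called, and 17.1% without those arrays. The ETS factor Spib was at 11.58 ± 0.61 on leukemic and 12.94 ± 0.10 on pre-B arrays (SD, n = 16 and 8), lower on 16 of 16 arrays, a fall of 1.36 (SE 0.20, adjusted p = 3e-05). Irf4, an interferon regulatory factor of B cells, fell by 1.10, also on 16 of 16 arrays. For 0.791% of all probe sets every leukemic array lay below every pre-B array. Bach2, a repressor that holds B cells before the plasma cell stage, fell by 1.002 and the E protein gene Tcf3 by 0.97. Irf1 (-0.51) and Ebf1 (-0.46) were not called. Without the arrays over the limit Irf1 was called lower (-0.675, limma adjusted p = 0.0124), and Ebf1 differed by -0.18 and was not called. In immature B against pre-B cells 6 were called higher and 3 lower: Pax5 rose by 1.15, Irf8 by 0.91 and Spi1, which encodes PU.1, by 0.84, Tcf3 fell by 0.58, and Bach2 (-0.30) and Prdm1 (0.26) were not called. Leaving out the arrays over the limit gave 5 and 3, and Prdm1, which drives plasma cell differentiation, was then called lower (-0.68, SE 0.21, adjusted p = 0.048). At this step 18.0% of all probe sets were called, and 11.7% without those arrays.

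Of 7 costimulatory and activation genes outside the members, 5 were called higher and 0 lower in immature B than in pre-B cells. The counts were the same without the arrays over the marker limit. Among all probe sets 18.0% were called, and 11.7% without those arrays. Cd86, the ligand of CD28, rose by 3.15, Icosl, the ligand of ICOS, by 2.95, Cd40 by 2.33 and the interleukin-4 receptor chain Il4ra by 1.97. Cd80 (0.55) and Cd44 (-0.12) were not called. In leukemic against pre-B cells Icosl rose by 2.04 and Cd40 fell by 1.66, with 14 of 16 leukemic arrays below every pre-B array, and Cd86 (1.01), Il10ra (-0.55) and Il4ra (-0.44) were not called. Without the arrays over the limit Icosl rose by 1.35 (adjusted p = 0.0487), Cd40 fell by 1.95 (adjusted p = 3.9e-06) and Il4ra fell by 0.79 (adjusted p = 0.00829), and the differences of Cd86 and Il10ra were 0.47 and -0.83.

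Of 14 class I presentation genes measured, 3 were called higher and 2 lower in leukemic than in pre-B cells: the peptide trimming enzyme Erap1 rose by 1.05, the chaperones Pdia3 by 0.57 and Canx by 0.37, and H2-K1 fell by 0.35, while Psme1 (0.37) and Tap2 (0.32) were not called. Leaving out the arrays over the marker limit gave 3 higher and 4 lower. In leukemic against pre-B cells 15.6% of all probe sets were called, and 17.1% without those arrays. In immature B against pre-B cells 5 were called higher, led by the immunoproteasome subunit Psmb8 (0.64) and Tapbp (0.64), with Tap2 at 0.45 and Calr at 0.34, and Psme1 (0.48) and Tap1 (0.42) were not called. When the arrays over the limit were left out, 2 were called higher. At this step 18.0% of all probe sets were called, and 11.7% without those arrays. Interferon response genes moved in the same step, 8 of 11 called higher in immature B cells and 4 of 11 without the arrays over the limit, with summed intensities of 1349 to 2635 against 505 to 1078 on pre-B arrays, and their part in the class II differences was not tested. Neutrophil and monocyte markers differed as well: 6 of 9 were called lower in leukemic than in pre-B cells, with sums of 600 to 16504 on leukemic and 6988 to 26387 on pre-B arrays, and their part was not tested either.

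The genes whose pattern was most like the mean z-score of Cd74, H2-Aa, H2-Ab1 and H2-Eb1 were looked for among 12113 genes outside the list. Over the 23 normal arrays the 6 with the highest Pearson's r were Ms4a4c (0.951), Il10ra (0.949), Rasa3 (0.943), Mycbp2 (0.935), Sorl1 (0.933) and N4bp2l1 (0.932). Over the 16 leukemic arrays they were Slc29a3 (0.930), Klf13 (0.875), Cbfa2t3 (0.860), Grn (0.855), Cd40 (0.835) and Plbd1 (0.833). The 2 sets share no gene. Among the members, Ciita had r of 0.874 over normal and 0.856 over leukemic arrays, and H2-Ob 0.645 and 0.072.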

How the data were processed

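The deposited values are linear intensities, 1 per probe set and array, that the authors made with RMA per the submitters' processing notes (version not given in the sources used here). RMA fits all arrays together and compresses low signals. Per the labels, 20 ng of total RNA was amplified for each array. The 64 array control probe sets were left out and log2 was taken. Groups came from the labels. Each leukemic comparison was fitted on its own groups, the normal stages in 1 fit of 23 arrays, with limma 3.58.1 in R 4.3.3 (lmFit, eBayes with an intensity trend) over 22626 probe sets. Benjamini-Hochberg adjustment covered all of them, and an adjusted p under 0.05 was called. limma was tested on simulated data. Ciita relations used 100000 permutations, whose smallest p is 1e-05. The number of arrays limits the precision.

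The members and lists were chosen with earlier results of these data known. All members are named. Of each other list, up to 4 called and 2 uncalled genes with the largest differences are named. The 6 genes most like the members were taken by Pearson's r, predicted genes left out. Probe sets carry GEO's platform annotation: 20380 have 1 symbol, 691 several and 1555 none. Lists used only for counts were markers of B-lineage cells, plasmacytoid dendritic cells, conventional dendritic cells and macrophages, neutrophils and monocytes, T and NK cells, and plasma cells, and interferon response genes. Alternatives were quantile normalization, a filter on the dimmest 40% of probe sets, 1 probe set per gene, no intensity trend, all 39 arrays in 1 fit, the accession run, the replicate block and leaving out arrays.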

Additional observations from a re-analysis of the deposited data

Results flagged for a closer look

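Of 64 pairs of a probe set and a group, 5 held an array far from the others by Dixon's test, which flags about 1 group in 20 by chance. Among the 5 leukemic arrays with pIpC, Ciita was at 7.18 on array A992 and at 5.18 to 5.72 on the other 4. In the same group Cd74 was at 8.17 on array 270, against 10.81 to 11.88 on the others.

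Immature B array 4 accounted for the remaining 3. H2-Aa was at 10.27 there and at 11.49 to 12.17 on the other 5 immature B arrays. H2-DMa was at 9.35, against 10.2 to 10.44, and a probe set shared by H2-DMb2 and H2-DMb1 was at 10.04, against 10.99 to 11.44. The sum of conventional dendritic cell and macrophage markers on array 4 was among those of 446 to 530.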

How the results depend on the processing

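Among counts of called member probe sets, leukemic against pre-B (2) became 1 with 1 probe set per gene, 0 within accession run 1 and 7 within run 2. Leukemic against pro-B (3, 14.5%) became 7 with all 39 arrays in 1 fit (21.3%) and 6 with the accession run as a covariate (18.7%). It became 1 with 1 probe set per gene (15.7%), within run 1 (2.85%), or without the arrays over the macrophage marker limit (3.44%). Leukemic against immature B (16, 24.3%) became 9 of 9 with 1 probe set per gene (24.7%), 3 within run 1 (12.4%) and 8 without the marker arrays (15.7%). Pre-B against pro-B (7, 30.3%) became 4 with 1 probe set per gene (33.6%) or all 39 arrays (19.3%) and 3 without the marker arrays (13.7%). Immature B against pre-B (15, 18%) became 9 of 9 with 1 probe set per gene (19.6%). It became 8 with all 39 arrays (10.9%), within run 1 (8.96%) or without the marker arrays (11.7%). Mature against immature B (9, 4.78%) became 5 with 1 probe set per gene (5.25%) and 4 with the replicate block (4.06%). It became 3 with all 39 arrays (1.39%) or within run 2 (3.15%). Mature B against pro-B (16, 26.4%) became 9 of 9 with 1 probe set per gene (28.1%) and 11 with all 39 arrays in 1 fit (17.9%). In that fit the lead calls of Cd74, H2-Aa, H2-Eb1 and H2-DMa were lost (limma adjusted p = 0.202, 0.174, 0.0581 and 0.21). The causes were not tested, except that 1 probe set per gene leaves 9 to count.

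Leaving out 1 array at a time gave 1 to 3 calls for leukemic against pre-B (1 without pre-B array 3). For leukemic against pro-B it gave 1 to 6: 1 without pro-B array 2, 3, 4 or 6, 5 without pro-B array 5 or leukemic array 117 or 226, and 6 without 122. The ranges were 13 to 16 against immature B, 6 to 10 for pre-B over pro-B, 11 to 15 for immature B against pre-B, 3 to 10 for mature against immature B, 16 to 16 for mature B against pro-B and 0 to 0 for pIpC. Shares over all probe sets are not given for these fits.

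Signs turned for members that were not called. In leukemic against pre-B these were H2-Eb1 (0.233 within run 1), H2-DMb2 (-0.641) and Cd83 (-0.966) within run 2, and H2-Ob (-0.034 with quantile normalization, -0.075 within run 1, -0.063 to 0.046 leaving out 1 array). In leukemic against pro-B they were H2-DMb2 (-0.183 with the covariate, -1.187 within run 2, -0.064 to 0.247 leaving out 1 array) and Cd83 (-0.221, -1.019 and -0.015 to 0.437). In pre-B against pro-B without the marker arrays, H2-Ab1 was 0.174 and Cd83 0.328. For pIpC, Cd74 was 0.238, H2-Aa 0.256, H2-Ab1 0.173, H2-Eb1 0.017, H2-DMb2 0.031 and H2-Ob -0.196 within run 1, and H2-Oa -0.683 within run 2. The relations of Ciita kept their sign and side of the threshold under each alternative run. Over all single members and alternatives, direction and call were kept 1624 times, a call was lost 101 times and gained 33 times, and the sign turned 25 times.

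Same-numbered normal arrays correlated in their deviations from the group means at -0.737 to 0.632 over 27 pairs, so the numbers were not taken to pair arrays. The replicate block gave 6 calls for pre-B over pro-B, 11 for immature B over pre-B, 4 for mature over immature B and 16 for mature B over pro-B. The shares of all probe sets called there were 22.6%, 19%, 4.06% and 28% in the same order. Probe sets below 4.14 carry little information on differences.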

Other observations

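H2-Ea, which encodes the alpha chain that pairs with H2-Eb1, was low throughout. One of its 3 probe sets had 2.98, 3.18 and 6.01 as lowest, median and highest value on the 16 leukemic arrays, against 2.67 to 3.45 on all 23 normal arrays. The high values were 6.01 on array A992 and 5.12 on array A1507, both with pIpC, followed by 3.69 on array 270. On a second H2-Ea probe set the highest value was 6.12, on leukemic array 226, and on the third no array exceeded 3.08.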
